A study of Homo sapiens with 4 samples.

Results

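The MYC, MAX and MXD network is a set of transcription factor genes whose protein products pair with each other on DNA, and its 10 members were taken here from the count table by gene symbol. These were the activators MYC, MYCN and MYCL, the shared partner MAX, the repressors MXD1, MXD3, MXD4 and MXI1, and the further MAX partners MNT and MGA. All 10 symbols were found among the 46427 rows of the table, and 9 of them had enough reads to be fitted. The set was picked because MXD3 was among the largest falls in an earlier look at the same comparison, so the values of the members are a description and carry no test of their own.

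The libraries came from NCI-H1944, an established human lung cancer cell line, exposed for 48 h to BAY1217389 or to its solvent DMSO and harvested 24 h after washout. BAY1217389 is an inhibitor of MPS1, the kinase also named TTK, which delays mitosis until chromosomes are attached to the spindle. Each treatment had 2 libraries that the labels call biological replicates, and all 4 came from the same line with no genetic change stated. The series was made to look for negative regulators of STING, an adaptor protein that signals the presence of cytosolic DNA.

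MAX is the hub of the network. It pairs with MYC proteins, and the pair binds the DNA sequence called the E-box and activates genes for growth, ribosome production and metabolism. MXD proteins and MNT compete for MAX, bind the same sites and bring the SIN3 corepressor with its histone deacetylases, so they oppose MYC. MXD genes are often switched on as cells leave the cell cycle, but in mouse embryos Mxd3 is found in progenitor cells that still divide. MGA pairs with MAX inside a Polycomb complex called PRC1.6, and MGA is recurrently inactivated in lung adenocarcinoma.

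Gene reads totalled 43661342 and 43067647 in the BAY1217389 libraries and, in the DMSO libraries, 39332931 and 38904473. Gene levels below are CPM, read counts scaled to the size of each library. A library with a count of 0 allows up to 0.0689 to 0.0766 CPM, which takes in counting error alone. The epithelial markers summed to 4790 and 4949 CPM in BAY1217389 libraries and to 4125 and 4133 CPM in DMSO libraries, with reads for 5 of 6 markers in every library and none for KRT19. The lung markers NKX2-1 and SFTPB had no reads, and the third, NAPSA, was below 1 CPM throughout. Of the leukocyte markers, PTPRC had no reads, CD3E had 0 and 2 reads after BAY1217389, against 0 and 2 after DMSO, and CD14 was at 1.63 and 2.10 CPM after BAY1217389, against 1.47 and 1.56 CPM after DMSO. Endothelial markers summed to 1.93 and 1.92 CPM after BAY1217389, against 0.787 and 0.792 CPM after DMSO, with reads in every library for 1 of 3 and none of the 3 at 0 throughout. Fibroblast markers summed to 46.2 and 45.7 CPM after BAY1217389, against 33.3 and 29.6 CPM after DMSO, with reads in every library for 3 of 5 and none for COL1A2. The epithelial, endothelial and fibroblast sums were higher in both BAY1217389 libraries than in both DMSO libraries. CD14 was too, but its change was imprecise (log2 fold change 0.30, SE 0.26, edgeR adjusted p = 0.449). The part of these markers in the results was not tested. TTK itself was at 12.1 and 11.5 CPM after BAY1217389, against 19.4 and 19.2 CPM after DMSO, and fell (log2 fold change -0.71, SE 0.09, edgeR adjusted p = 8.24e-08).

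The results turn on the 4 MXD genes, which did not all change alike, and parts of their coding sequences are shown first. The stretch that encodes the SIN3-binding N-terminus is 75 bases long and reads as follows, from coding base 22 in MXD1 and MXI1, 19 in MXD3 and 13 in MXD4, with capitals for the 46 positions that are the same in all 4 genes.
MXD1: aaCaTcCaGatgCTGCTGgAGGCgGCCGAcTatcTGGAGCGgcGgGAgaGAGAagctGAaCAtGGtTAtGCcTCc
MXD3: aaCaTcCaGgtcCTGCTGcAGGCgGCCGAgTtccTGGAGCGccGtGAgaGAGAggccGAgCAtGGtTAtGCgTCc
MXD4: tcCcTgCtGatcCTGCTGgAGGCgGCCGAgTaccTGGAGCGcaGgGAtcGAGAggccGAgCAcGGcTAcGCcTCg
MXI1: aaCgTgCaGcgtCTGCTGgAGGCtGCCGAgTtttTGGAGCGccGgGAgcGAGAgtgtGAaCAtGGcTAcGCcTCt
A further stretch of 48 bases encodes part of the basic region, which contacts the E-box, and residues after it. It has capitals for the 21 positions shared by all 4 genes.
MXD1: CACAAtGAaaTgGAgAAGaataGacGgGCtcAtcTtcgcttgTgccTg
MXD3: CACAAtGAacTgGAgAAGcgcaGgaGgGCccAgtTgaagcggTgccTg
MXD4: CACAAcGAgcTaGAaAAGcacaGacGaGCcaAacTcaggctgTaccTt
MXI1: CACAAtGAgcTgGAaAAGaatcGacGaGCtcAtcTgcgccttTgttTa
Between pairs of these genes, the aligned coding bases were 64.0% to 69.2% identical. The longest run of identical coding bases in any pair was 17, between MXD1 and MXD4, and the shortest such maximum was 10, between MXD3 and MXI1. The sequences are those of transcripts in GENCODE release 29 that match RefSeq identifiers named in the count table.

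MXD1 and MXD3 changed in opposite directions. MXD1, the founding MXD repressor, had 1023 and 812 reads, or 23.5 and 19.0 CPM, in BAY1217389 libraries, against 424 and 410 reads, or 10.8 and 10.5 CPM, in DMSO libraries. Both treated libraries lay well above both controls, although the treated ones differed from each other more than the controls did. The fitted log2 fold change of MXD1 was 1.00 (SE 0.10), and it was 0.83 without BAY1217389 replicate 1 and 1.15 without BAY1217389 replicate 2. MXD3, the family member tied to dividing cells, had 121 and 120 reads, or 2.78 and 2.80 CPM, after BAY1217389, against 215 and 239 reads, or 5.46 and 6.10 CPM, after DMSO. The treated libraries were nearly equal and lay below both controls, with a log2 fold change of -1.05 (SE 0.17). Because the reads come from bulk RNA, a change in the share of cells that carry a transcript and a change in its amount per cell cannot be told apart.

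MXD4, a repressor usually linked to resting and differentiated cells, was lower as well. It stood at 9.91 and 10.2 CPM in BAY1217389 libraries, against 14.1 and 15.8 CPM in DMSO libraries, with no overlap between groups and a log2 fold change of -0.57 (SE 0.10). MXI1, also known as MXD2, was at 35.6 and 39.3 CPM after BAY1217389, against 35.7 and 36.6 CPM after DMSO. The MXI1 groups overlapped, and its log2 fold change was 0.05 (SE 0.06, 95% interval -0.07 to 0.18). Of the 4 MXD genes, 1 was thus higher, 2 were lower and 1 was within the spread of its libraries.

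**Figure D1:**
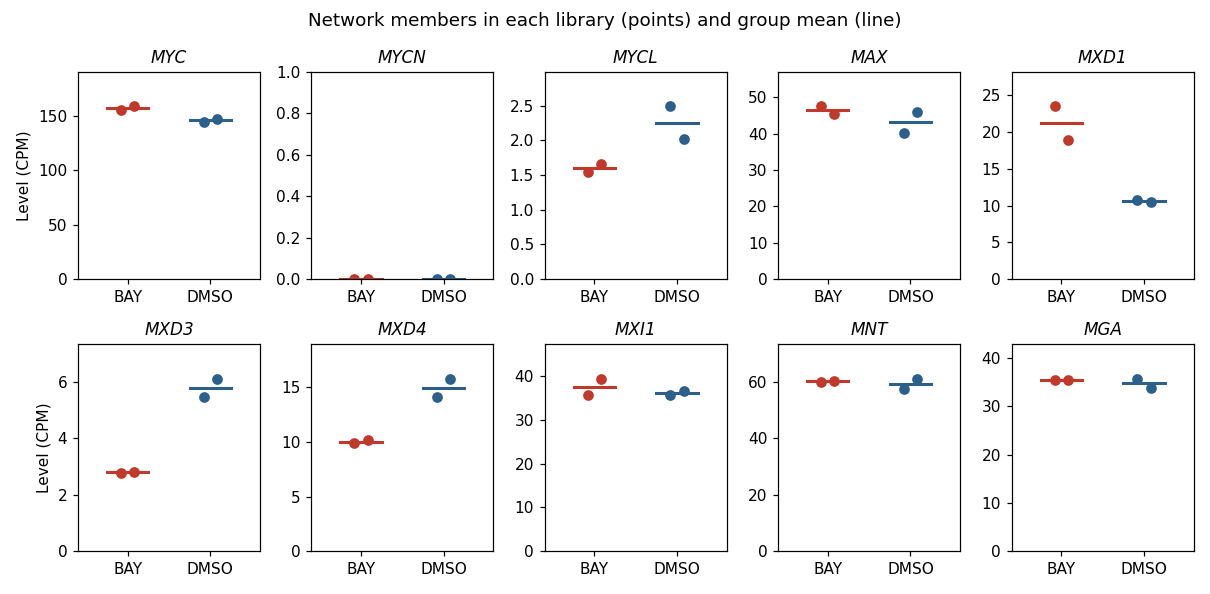
Level in CPM (vertical axes, each from 0) of each of the 10 members in the 2 BAY1217389 libraries (red, left) and the 2 DMSO libraries (blue, right), with the group mean as a line. MXD1 is higher and MXD3 and MXD4 are lower after BAY1217389 with no overlap, whereas MAX, MXI1, MNT and MGA overlap and MYCN is at 0.

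Reads of neighbouring genes bear on how firmly MXD3 can be counted. In GENCODE release 29 the MXD3 locus overlaps RAB24 on the same strand and PRELID1 on the opposite strand. RAB24 was at 18.1 and 18.1 CPM after BAY1217389, against 20.1 and 19.3 CPM after DMSO, with no overlap, and did not pass (log2 fold change -0.12, SE 0.08, edgeR adjusted p = 0.288). PRELID1 was at 117.8 and 113 CPM after BAY1217389, against 121.4 and 126.7 CPM after DMSO, and fell (log2 fold change -0.10, SE 0.04, edgeR adjusted p = 0.0399). Both neighbours had far more reads than MXD3 and lay lower after BAY1217389 as it did, by smaller fold changes, and their part in its count was not tested. MXD1 overlaps SNRNP27 on the same strand, which was at 26.4 and 24.7 CPM after BAY1217389, against 25.2 and 24.7 CPM after DMSO. No source used here states whether the counting used strand, so counts at these overlaps are uncertain.

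Because the genes moved in different directions, the makeup of the MXD transcripts shifted while their sum did not stand apart. For this the CPM of each gene was divided by its exon length in kilobases, which gives RPKM, a level per length. The summed level of the 4 genes was 16.3 and 16.45 RPKM in BAY1217389 libraries, against 15.9 and 16.6 RPKM in DMSO libraries, so the groups overlapped. MXD1 made up 25.7% and 20.5% of the sum after BAY1217389, against 12.1% and 11.2% after DMSO. MXD3 made up 5.19% and 5.18% after BAY1217389, against 10.45% and 11.1% after DMSO, and MXD4 made up 15.04% and 15.23% after BAY1217389, against 21.9% and 23.4% after DMSO. MXI1 held the largest share in all 4 libraries, 54.1% and 59.1% after BAY1217389 against 55.5% and 54.3% after DMSO. With the longest coding transcript as the length, MXD1 made up 23.2% and 18.4% after BAY1217389, against 10.65% and 9.87% after DMSO, and MXD3 6.75% and 6.69% after BAY1217389, against 13.3% and 14.2% after DMSO.

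**Figure D2:**
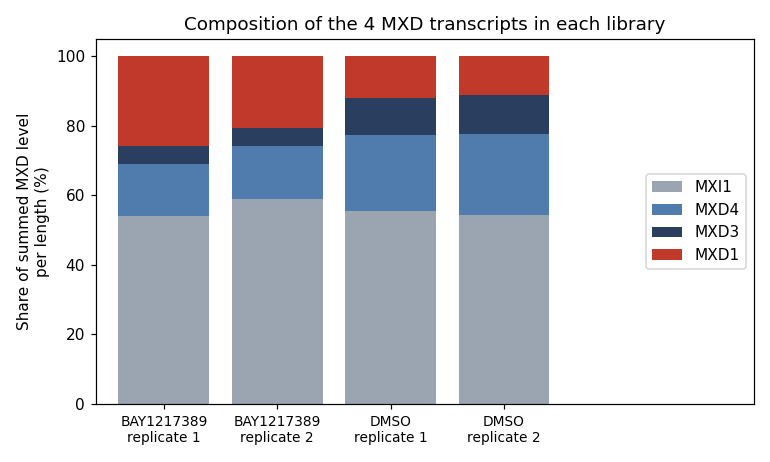
Share in percent (vertical axis) of MXI1, MXD4, MXD3 and MXD1 in the summed level per exon length, for each of the 2 BAY1217389 libraries (left) and the 2 DMSO libraries (right). The MXD1 share is 25.7% and 20.5% in BAY1217389 libraries and 12.1% and 11.2% in DMSO libraries, and the MXD3 and MXD4 shares are smaller in BAY1217389 libraries.

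A ratio of 2 genes within a library does not depend on library scaling or on gene length when it is compared between groups. The log2 ratio of MXD1 to MXD3 was 3.08 and 2.76 in BAY1217389 libraries, against 0.98 and 0.78 in DMSO libraries, a difference of 2.04. The log2 ratio of MXD1 to MXD4 was 1.24 and 0.90 after BAY1217389, against -0.39 and -0.59 after DMSO, so the order of reads between these genes turned over in both treated libraries. MXD3 also changed relative to MXD4, with a log2 ratio of -1.84 and -1.86 after BAY1217389, against -1.37 and -1.37 after DMSO.

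The activator MYC was the most abundant member and was slightly higher after BAY1217389. It stood at 155 and 158 CPM in BAY1217389 libraries, against 144 and 147 CPM in DMSO libraries. The groups did not overlap, but the gap was small, with a log2 fold change of 0.11 (SE 0.04) and a range of 0.09 to 0.12 over 11 other ways of processing. PVT1, the noncoding gene next to MYC, was at 17.5 and 18.3 CPM after BAY1217389, against 15.4 and 16.5 CPM after DMSO, and did not pass the test applied to all genes (log2 fold change 0.17, SE 0.09, edgeR adjusted p = 0.163). CASC11, which also neighbours MYC, had 5 and 0 reads after BAY1217389, against 3 and 0 after DMSO.

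The other activators were scarce or not detected. MYCL, a MYC relative best known from small cell lung cancer, had 67 and 71 reads, or 1.54 and 1.66 CPM, after BAY1217389, against 98 and 79 reads, or 2.49 and 2.02 CPM, after DMSO. The groups did not overlap, yet the log2 fold change of -0.49 had an SE of 0.25 and a 95% interval that reached 0.01 at its upper end. MYCN, the relative known from neuroblastoma, had 0 reads in all 4 libraries, and so did the antisense genes MYCNOS and MYCL-AS1.

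MAX and its partners MNT and MGA overlapped between the groups. MAX was at 47.4 and 45.3 CPM after BAY1217389, against 40.2 and 45.9 CPM after DMSO. Its treated libraries fell partly inside the range of the controls, and its log2 fold change was 0.11 (SE 0.06), 0.01 without DMSO replicate 1 and 0.20 without DMSO replicate 2. MAX overlaps FNTB on the opposite strand, which was at 14.4 and 12.7 CPM after BAY1217389, against 12.8 and 13.3 CPM after DMSO. CHURC1-FNTB, also on the opposite strand, had 50 and 125 reads after BAY1217389, against 32 and 32 after DMSO. The part of these genes in the MAX count was not tested. MNT, a broadly present repressor, was at 60.1 and 60.3 CPM after BAY1217389, against 57.4 and 61.1 CPM after DMSO, with a log2 fold change of 0.02 (95% interval -0.08 to 0.12). MGA was at 35.4 and 35.4 CPM after BAY1217389, against 35.7 and 33.8 CPM after DMSO, with a log2 fold change of 0.03 (95% interval -0.10 to 0.15). These intervals bound the change at this depth and do not show that the genes stayed the same.

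Set against the activator, the repressors therefore changed unequally. The log2 ratio of MYC to MXD3 was 5.80 and 5.82 in BAY1217389 libraries, against 4.72 and 4.59 in DMSO libraries, and that of MYC to MXD4 was 3.97 and 3.96 after BAY1217389, against 3.35 and 3.22 after DMSO. The log2 ratio of MYC to MXD1 went the other way, at 2.72 and 3.06 after BAY1217389, against 3.74 and 3.81 after DMSO. The log2 ratio of MYC to MAX overlapped between groups, at 1.71 and 1.81 after BAY1217389, against 1.84 and 1.68 after DMSO.

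Over the 9 fitted members, the edgeR test applied to all genes put MXD1 and MYC above and MXD3 and MXD4 below the DMSO level, and left 5 members uncalled. Of all 16738 genes tested, 27.8% were called, 14.5% as higher and 13.3% as lower in BAY1217389 libraries at an adjusted p under 0.05, and since the members were chosen on this comparison nothing is read from their count. The 11 other ways of processing reuse the same 4 libraries, and MXD3 was picked on this fall, so the ranges over them are a description only. The log2 fold change ran from 0.83 to 1.15 for MXD1 and from -1.13 to -0.97 for MXD3. It ran from -0.65 to -0.49 for MXD4 and from 0.09 to 0.12 for MYC. The MYC call was lost with DESeq2, without BAY1217389 replicate 2, without DMSO replicate 1 and without DMSO replicate 2, and MAX was called only without DMSO replicate 2. Groups did not overlap for 2 members that were higher and 3 that were lower, against 61% of all genes tested, 30.5% in each direction. The median log2 fold change was 0.03 over the 9 members and 0.0011 over all genes. The 5th and 95th percentiles of all genes were -0.46 and 0.96, and of the members MXD1 lay above this range and MXD3, MXD4 and MYCL below it.

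**Figure D3:**
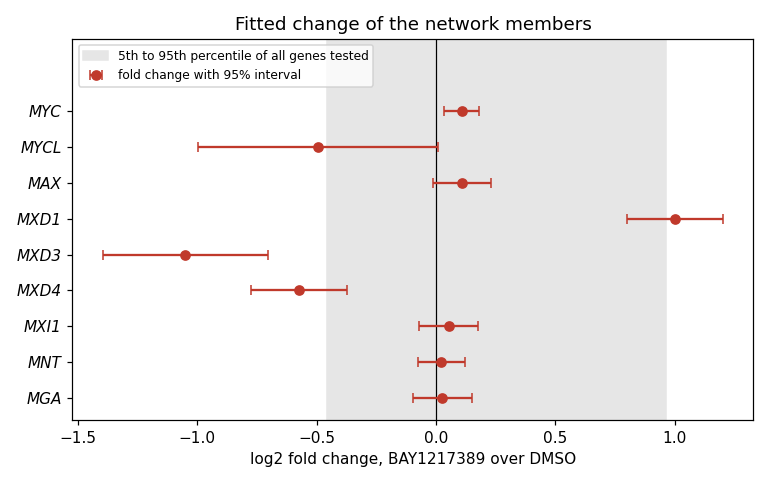
Fitted log2 fold change of BAY1217389 over DMSO (horizontal axis) with its 95% interval for the 9 fitted members, over a grey band from the 5th to the 95th percentile of all 16738 genes. MXD1 lies at 1.00, MXD3 at -1.05 and MXD4 at -0.57, and the other members lie between -0.49 and 0.11.

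**Figure D4:**
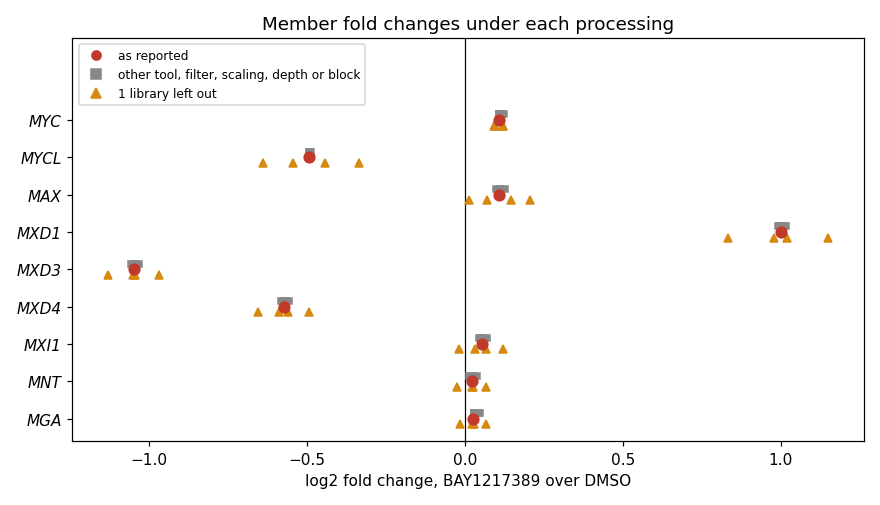
Log2 fold change of BAY1217389 over DMSO (horizontal axis) of the 9 fitted members as reported (red circles), with other tools, filters, scalings, depth or the replicate block (grey squares) and with 1 library left out (orange triangles). MXD1 stays between 0.83 and 1.15, MXD3 between -1.13 and -0.97 and MXD4 between -0.65 and -0.49, while MXI1, MNT and MGA fall on both sides of 0.

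Per exon length, MYC was also the highest member. It reached a mean of 52.2 RPKM after BAY1217389 and 48.5 RPKM after DMSO. MNT followed with 12.05 RPKM after BAY1217389 and 11.9 RPKM after DMSO, and MAX with 11.3 RPKM after BAY1217389 and 10.5 RPKM after DMSO, but these 2 neighbours changed places when the longest coding transcript was used as the length. MXI1 came next with 9.25 RPKM after BAY1217389 and 8.92 RPKM after DMSO. Below it, MXD1 had 3.78 RPKM after BAY1217389 and was 5th, against 1.89 RPKM after DMSO, where it was 7th. MXD4 had 2.475 RPKM after BAY1217389 and 3.685 RPKM after DMSO, and MGA had 2.33 RPKM after BAY1217389 and 2.29 RPKM after DMSO. After BAY1217389 the levels of MXD4 (2.44 and 2.51 RPKM) and MGA (2.33 and 2.33 RPKM) lay close together. MXD3 had 0.848 RPKM after BAY1217389 and 1.76 RPKM after DMSO, where its libraries (1.66 and 1.85 RPKM) lay just below those of MXD1 (1.92 and 1.86 RPKM), an order that turned with the other length. MYCL had 0.323 RPKM after BAY1217389 and 0.455 RPKM after DMSO.

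The promoters of MXD1 and MXD4 are shown because these repressors moved in opposite directions, and MXD4, like MNT, carries the network's own site. Each window holds the 250 bases before the gene start given by RefSeq for GRCh38.p14, with capitals for CACGTG, the E-box, and for CCAAT on either strand.
MXD1, chr2:69914859-69915108, plus strand: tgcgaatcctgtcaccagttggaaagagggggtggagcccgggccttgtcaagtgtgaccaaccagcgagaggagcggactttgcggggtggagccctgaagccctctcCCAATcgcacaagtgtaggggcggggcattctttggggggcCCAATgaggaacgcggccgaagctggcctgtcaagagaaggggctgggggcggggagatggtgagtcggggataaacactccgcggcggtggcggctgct
MXD4, chr4:2262110-2262359, minus strand: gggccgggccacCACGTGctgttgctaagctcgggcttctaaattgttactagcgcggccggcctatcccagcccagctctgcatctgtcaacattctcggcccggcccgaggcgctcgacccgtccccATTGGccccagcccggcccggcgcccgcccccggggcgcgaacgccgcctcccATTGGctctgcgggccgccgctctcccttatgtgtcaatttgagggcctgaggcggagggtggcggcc
The MXD4 window held 1 E-box and the MXD1 window none, and 6.34% of all 35116 promoter windows of this length held one. MXD4 was shown with its E-box known, so that share is a background figure and no test. Of the 9 members with a window, some with more than 1 and with MXD3 left aside, only MXD4 and MNT held an E-box. The MNT window is not shown, and MNT overlapped between the groups (log2 fold change 0.02). CCAAT stood at 2 places in each window, 141 and 100 bases before the start of MXD1 and 121 and 68 bases before that of MXD4, and 32.0% of all windows held at least 1. Neither window held the E2F forms TTTCGCGC, TTTGGCGC, TTTCCCGC or TTTGCCGC, the cell cycle element TTTGAA, the interferon-response form (GAAA repeated after any 2 bases), the STAT form TTCNNNGAA, the NF-kB form GGGANTTCC or the E-box variant CACGCG, searched on both strands. Between 0.439% and 13.3% of all windows held one of these forms. The window listed for MXD3 lies upstream of the starts of the transcripts that the count table names, and it is not shown. A match is a description of letters only.

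Among falls, MXD3 was 7th of the 2152 genes called lower that reached 5 CPM in the higher group without overlap. The choice of the network rested on this value. MXD3 was itself just above that cut, with a DMSO mean of 5.78 CPM, and falls of genes below the cut were not ranked. The 10th was KIF20A, a mitotic kinesin, with 10.4 and 11.5 CPM after BAY1217389, against 20.9 and 23.5 CPM after DMSO, and a log2 fold change of -1.02. The 11th was NEURL1B, a ubiquitin ligase gene, at 2.64 and 3.01 CPM after BAY1217389, against 5.66 and 5.72 CPM after DMSO, and a log2 fold change of -1.01. MXD3 was 11th without BAY1217389 replicate 1 and 15th without DMSO replicate 2, so its place depends on single libraries.

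The 5 genes whose levels followed MXD3 most closely were AKNA, CCNB2, KIF20A, CCNF and TROAP, found from the same values that chose the network. Likeness was the distance between log2 CPM, centred on each gene, over the 4 libraries, among 11282 genes that reached 5 CPM, and with 4 libraries in 2 groups it mostly reflects the size of the treatment difference. AKNA, a centrosome-associated protein gene first described as a transcription factor, was nearest at a distance of 0.038, with 6.54 and 6.45 CPM after BAY1217389, against 13.0 and 14.4 CPM after DMSO. CCNB2, a mitotic cyclin, followed at 0.091 and KIF20A at 0.093. CCNF, a cyclin-like F-box protein gene, came next at 0.13 and TROAP, a spindle-associated protein gene, at 0.14.

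The MLX arm, a parallel branch in which MLX takes the place of MAX, was lower at its 3 factor genes. MLXIPL, which encodes the glucose-sensing factor ChREBP, was at 17.1 ± 0.636 CPM after BAY1217389 and 26.05 ± 0.331 CPM after DMSO (SD, n = 2 each). Its log2 fold change was -0.61 (SE 0.08, edgeR adjusted p = 8.7e-08), the largest fall on this list. MLX, the shared partner of this arm, fell to 70.8 and 70.9 CPM after BAY1217389, against 82.5 and 81.2 CPM after DMSO (log2 fold change -0.21, edgeR adjusted p = 2.72e-04). MLXIP, which encodes MondoA, fell as well (-0.23, edgeR adjusted p = 7.29e-04). KLF10, a target of this arm, rose by 0.26 on the log2 scale (SE 0.04, edgeR adjusted p = 5.35e-07). TXNIP and ARRDC4, the best known MondoA targets, had log2 fold changes of 0.34 (SE 0.17) and 0.59 (SE 0.35) and did not pass. The median over the 6 tested was 0.03. Beside 14.5% of all genes called higher and 13.3% called lower, 1 was thus higher, 3 were lower and 2 did not pass. These 4 calls held in every alternative run.

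Genes that MYC is known to induce leaned lower by small amounts. Of 57 tested (CCND2 was not), 20 fell, 4 rose and 33 did not pass, and the median lay at -0.08 on the log2 scale against 0.0011 over all genes. For comparison, 13.3% of all genes tested were called lower and 14.5% higher, and these shares take in genes with few reads. With the stricter low-count filter, 17 of 55 listed genes were lower and the list median was -0.065. That filter left about 11240 genes in the whole table, of which 2090 were called lower. ENO1, a glycolytic enzyme gene, was at 2600 ± 40.2 CPM after BAY1217389 and 2935 ± 1.29 CPM after DMSO, which is -0.18 as a log2 fold change (SE 0.02, edgeR adjusted p = 4.01e-09). HSPD1, a mitochondrial chaperone gene (-0.20), NPM1, a nucleolar protein gene (-0.22), and SHMT2, a mitochondrial one-carbon enzyme gene (-0.22), fell as well, with edgeR adjusted p between 1.13e-07 and 1.92e-07. Processed pseudogenes can share reads with ENO1, HSPD1 and NPM1. The 4 that rose, named after their values were seen, were HK2, a hexokinase (0.60, from low levels), UTP20 (0.16), EIF4E, the cap-binding factor (0.13), and GRWD1 (0.11). The log2 fold change of HK2 was 0.97 without DMSO replicate 1 and 0.31 without DMSO replicate 2, and that of GRWD1 was 0.07 without DMSO replicate 2. The counts shrank to 13 lower and 0 higher with DESeq2, which at an unadjusted p under 0.05 had 4 higher, and to 13 lower without DMSO replicate 1 and 12 without DMSO replicate 2. The higher count was 0 without BAY1217389 replicate 1 and without DMSO replicate 2, with 5 and 1 at an unadjusted p under 0.05, and 2 when either other library was left out.

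Genes that MYC is known to repress were mixed. Of 11 tested, 5 rose, 2 fell and 4 did not pass, and the median lay at 0.03 on the log2 scale. Over all genes, 14.5% were called higher and 13.3% lower. THBS1, which encodes the matrix protein thrombospondin 1, was at 13.5 ± 1.14 CPM after BAY1217389 and 5.59 ± 0.317 CPM after DMSO, which is 1.27 as a log2 fold change (SE 0.12, edgeR adjusted p = 4.67e-11). CLU, a secreted chaperone gene, rose by 0.29 (edgeR adjusted p = 2.16e-08) and CDKN1A, which encodes the cell cycle inhibitor p21, by 0.11 (edgeR adjusted p = 8.36e-04). The other rises, named after their values were seen, were DDIT3 (0.20, edgeR adjusted p = 0.00143) and GADD45A (0.18, edgeR adjusted p = 0.0452). The GADD45A call was lost with DESeq2, without a low-count filter, at equal depth and when any single library was left out. CEBPA, a differentiation factor gene, fell to 16.9 ± 0.754 CPM after BAY1217389, against 22.8 ± 1.47 CPM after DMSO (log2 fold change -0.43, edgeR adjusted p = 8.78e-05). The other that fell was the ferritin gene FTH1 (-0.07), named after its values were seen, and its call was lost without DMSO replicate 1 and without DMSO replicate 2. CDKN2B had no place in the fit.

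**Figure D5:**
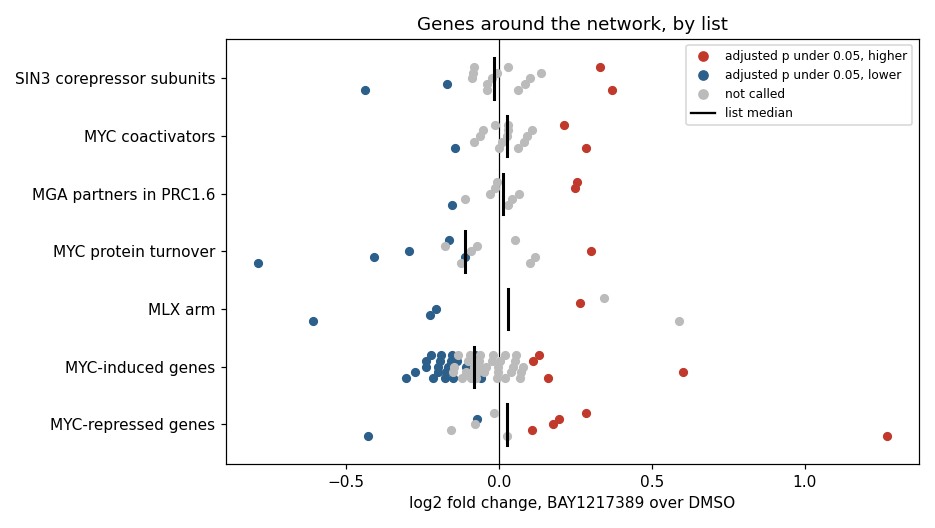
Log2 fold change of BAY1217389 over DMSO (horizontal axis) of each tested gene on 7 lists around the network, in red where called higher, blue where called lower and grey otherwise, with the list median as a bar. The list medians lie between -0.11 and 0.03, MYC-induced genes gather left of 0, and THBS1 (1.27), AURKA (-0.79) and MLXIPL (-0.61) stand farthest out.

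Genes that set the lifetime of MYC protein were lower more often than higher. Of 13 tested, 5 fell, 1 rose and 7 did not pass, and the median lay at -0.11 on the log2 scale. These counts are to be read beside the 13.3% called lower and 14.5% called higher over all genes. AURKA, a mitotic kinase that shields MYC family proteins from breakdown, was at 48.5 ± 0.207 CPM after BAY1217389 and 83.8 ± 0.332 CPM after DMSO, which is -0.79 as a log2 fold change (SE 0.05, edgeR adjusted p = 3.57e-16). SKP2, a ubiquitin ligase subunit gene, fell by 0.29 on the log2 scale, CIP2A, an inhibitor of the phosphatase that destabilises MYC, by 0.41, and SET, another inhibitor of that phosphatase, by 0.11, with edgeR adjusted p between 5.56e-04 and 0.00137. PPP2R5A, a subunit gene of that phosphatase itself, also fell (-0.16, edgeR adjusted p = 0.0223), and was named after its values were seen. The PPP2R5A call was lost with DESeq2, without BAY1217389 replicate 2 and without either DMSO library. The 1 that rose was FBXW7 (0.30, edgeR adjusted p = 0.00969), the ubiquitin ligase subunit that marks MYC for breakdown, named after its values were seen. The FBXW7 call was lost with DESeq2, without BAY1217389 replicate 1 and without DMSO replicate 2, each leaving 0 genes called higher and 1 at an unadjusted p under 0.05.

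Genes for the protein partners of the network were tested as 3 lists, to be read beside the 27.8% called over all genes. Of 16 subunits of the SIN3 corepressor, 2 rose, 2 fell and 12 did not pass, and the median lay at -0.02 on the log2 scale. ARID4B (0.37, SE 0.05, edgeR adjusted p = 3.49e-07) and ARID4A (0.33, edgeR adjusted p = 0.00718) rose, and RBBP7, a histone-binding subunit gene (-0.17, edgeR adjusted p = 2.68e-04), and SAP30 (-0.44, edgeR adjusted p = 0.0186) fell. The calls of ARID4A and SAP30 were lost with DESeq2, without BAY1217389 replicate 1 (ARID4A at 0.20) and without DMSO replicate 2. SIN3A itself was at a log2 fold change of 0.10 (SE 0.04) and SIN3B at -0.02 (SE 0.07), and neither passed. Of 16 MYC coactivators, 2 rose, 1 fell and 13 did not pass. KAT2A, an acetyltransferase gene (0.29, edgeR adjusted p = 1.23e-06), and EP300 (0.21, edgeR adjusted p = 5.62e-05) rose, and WDR5 (-0.14, edgeR adjusted p = 0.00687) fell, a call lost without DMSO replicate 1, which left 0 lower and 2 at an unadjusted p under 0.05. Of 10 partners of MGA in PRC1.6, 2 rose, 1 fell and 7 did not pass. E2F6 (0.25, edgeR adjusted p = 0.00603) and RYBP (0.25, edgeR adjusted p = 0.0132) rose, and TFDP1 (-0.15, edgeR adjusted p = 0.00226) fell. Without BAY1217389 replicate 1 both rises were lost, at log2 fold changes of 0.13 for E2F6 and 0.15 for RYBP, with 0 at an unadjusted p under 0.05, and 2 genes were lower. Without DMSO replicate 1 the calls of RYBP (0.15) and TFDP1 were lost, which left 1 higher and 0 lower, with 1 lower at an unadjusted p under 0.05. With DESeq2 the call of RYBP was lost.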

How the data were processed

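Libraries were made from total RNA with a stranded poly(A) kit, per the labels' protocols, and hg18 is the build in the submitters' processing notes, and no source used here names the aligner or counter. Read counts per gene, in whole numbers and not normalized, are what the authors deposited. A further 4 columns of per-sample values matched no sample and were not used.

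Counts were analysed with edgeR 4.0.16 in R 4.3.3. Genes passing filterByExpr (minimum count 10, minimum total 15) numbered 16738, and 29689 rows were left out. Scaling was by TMM (factors 0.994 to 1.01). The quasi-likelihood test of treatment, with robust dispersions and no other term, gave two-sided p-values, adjusted by Benjamini-Hochberg over all genes tested with 0.05 as the threshold, and SEs come from that fit. Fold changes are log2, BAY1217389 minus DMSO. The steps were tested on simulated data. DESeq2 1.42.0, limma 3.58.1 (voom), other filters and scaling, equal depth and leaving out each library were alternatives.

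Members and lists were chosen with earlier results of these data known. Named were all members, up to 4 called genes of each list by smallest p, neighbours of MYC genes, TTK, the 10th and 11th falls and the 5 genes nearest to MXD3. SIN3A, SIN3B, TXNIP, ARRDC4, HK2, UTP20, EIF4E, GRWD1, FBXW7, PPP2R5A, DDIT3, GADD45A and FTH1 were added outside this rule, after their values were seen. ID3, HES1, SREBF2 and the genes that overlap MXD3, MXD1 and MAX were also named outside it. The libraries of a group differed beyond sampling noise (chi-square per degree of freedom 3.93 for BAY1217389 and 3.74 for DMSO). RPKM and overlaps used GENCODE release 29, while the annotation behind the counts is uncertain, so lengths and overlaps may differ from those counted. The summed level of the leukocyte markers is not reported here.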

Additional observations from a re-analysis of the deposited data

How the results depend on the processing

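Under 11 alternatives no fold change of a called member or of a called gene named from the lists changed sign, whereas those of MXI1, MNT and MGA, and the list medians of SIN3 subunits, MGA partners, the MLX arm and MYC-repressed genes, all near 0, took the other sign under at least 1 alternative each. SIN3A, SIN3B, TXNIP, ARRDC4, the markers and the genes that overlap members were not rerun one by one. The call of PRELID1, close to the threshold, therefore has no such check. With DESeq2, 1400 genes over the whole table were called lower, and the counts were 1 member higher, 1 higher and 1 lower for SIN3 subunits, 1 higher for MGA partners, 0 higher for MYC protein turnover, and 0 higher and 13 lower for MYC-induced genes. With the stricter low-count filter, 4 SIN3 subunits and 4 MYC coactivators were higher. Without a low-count filter, 2 MYC-induced genes were higher and 13 lower. The cause of these shifts was not tested. With 1 library left out, the counts ran from 1 to 2 for members higher, from 1 to 2 for SIN3 subunits in each direction, from 0 to 1 for coactivators lower, from 0 to 2 for MGA partners in each direction, from 0 to 1 for turnover genes higher, from 0 to 2 higher and 12 to 15 lower for MYC-induced genes and from 1 to 2 for MYC-repressed genes lower. A lone library of a group is there assumed to vary like the other group. Replicate numbers are shared between the groups, but nothing in the labels ties same-numbered libraries together, and their deviations from the group means correlated at 0.044. With the replicate number as a block, 2466 genes were higher and 2326 lower, and 2 MGA partners were lower. With 2 libraries a group, small fold changes and genes with few reads such as MYCL remain imprecise.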

Other observations

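Other factors that bind E-boxes or pair with such factors were put on a list after the values of the network were seen, to be read beside the 27.8% of all genes that were called. Of 22 tested, 4 rose, 3 fell and 15 did not pass, and the median lay at 0.02 on the log2 scale. BHLHE40, a repressor gene induced by stress and hypoxia, was at 205.8 ± 2.64 CPM after BAY1217389 and 162.6 ± 1.24 CPM after DMSO, which is 0.34 as a log2 fold change (SE 0.03, edgeR adjusted p = 3.58e-10). ID2, which encodes an inhibitor that pairs with basic helix-loop-helix factors without binding DNA, was at 37.3 ± 0.16 CPM after BAY1217389 and 28.1 ± 2.83 CPM after DMSO, which is 0.41 as a log2 fold change (edgeR adjusted p = 9.68e-06). Its relative ID3 (0.14) and the Notch target HES1 (0.25) were also higher. EPAS1, which encodes the hypoxia-inducible factor HIF-2 alpha, fell to 548.5 ± 3.65 CPM after BAY1217389, against 638.9 ± 7.17 CPM after DMSO (log2 fold change -0.22, edgeR adjusted p = 1.24e-08). The sterol regulators SREBF1 (-0.15) and SREBF2 (-0.09) were lower too, and SREBF1 was at -0.09 without BAY1217389 replicate 1. HES1 lost its call with DESeq2, without a low-count filter and without 3 of the libraries (both of BAY1217389 and DMSO replicate 1), ID3 without BAY1217389 replicate 2 and without DMSO replicate 2, and SREBF2 without BAY1217389 replicate 1 and without either DMSO library.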
